A study of Mus musculus with 60 samples.

Results

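This report concerns the type I interferon-stimulated genes, a list of 46 genes whose products restrict viruses or tune the interferon response. Members were chosen by name, and all 46 were found among the 55414 genes counted. Messenger RNA was sequenced from naive CD8 T cells with the OT-I transgene, an ovalbumin-specific T cell receptor, purified by negative selection from spleens of NOD mice, a strain prone to autoimmune diabetes. The mice were wild type or Sh2b3-/-, and Sh2b3 encodes an adaptor that dampens cytokine receptor and JAK signalling. The labels give neither the animals' age nor whether each library had an animal or culture of its own. The p-values therefore cover only the spread between libraries, which may be technical.

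Unstimulated cells (0 h) gave 11 libraries of each genotype. Cells stimulated through CD3 (antibody coated on the plate at 10 µg/mL) and CD28 (antibody in solution at 5 µg/mL) gave 5 libraries of each genotype at 2 h, 5 at 6 h and 5 at 24 h. A further 4 libraries of each genotype came from 24 h cultures that also held a blocking antibody to IL-2 (10 µg/mL). Library numbers fall into 4 runs, called sets here. For each genotype, 5 of the 0 h libraries and all of those at 2 and 6 h belong to set A. Set B has 2 per genotype at either of 0 and 24 h. Set C has 4 per genotype at 0 h and 3 at 24 h, and the anti-IL-2 cultures alone make up set D. The labels do not say what the runs stand for, and they name 2 RNA kits without saying which served which library.

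Type I interferons bind the receptor IFNAR1 with IFNAR2, whose kinases JAK1 and TYK2 activate the transcription factor complex ISGF3, which binds an interferon-stimulated response element (ISRE) in the promoters of target genes. Resting T cells keep a low, tonic expression of such genes from interferon present in the body, and SOCS1 and USP18 limit signalling at the receptor.

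The promoters of members whose values follow are shown because the genes moved together and because 1 of them, Slfn2, moved the other way. A RefSeq window (GRCm38.p6) from 250 bases before to 50 after the start was matched for 36 members. The ISRE was searched on both strands as GAAA, any 2 bases and GAAA again. It lay in 20 of 43 member windows (46.5%), which belong to 18 members, against 3.44% of all 32851 windows. GAS, an element of interferon gamma target genes, was searched as TTCNNNGAA on both strands and lay in 11.6% of member windows against 8.3% of all. The 200 bases before each start are printed on the gene's strand, with ISRE matches, on either strand and overlapping where they touch, in capitals. Coordinates are chr19:34640689-34640888 (plus strand) for Ifit1, chr19:34583329-34583528 (plus) for Ifit3, chr4:156200819-156201018 (minus) for Isg15, chr8:71537473-71537672 (minus) for Bst2, chr11:83020811-83021010 (minus) for Slfn8 and chr11:83064912-83065111 (plus) for Slfn2.
Ifit1: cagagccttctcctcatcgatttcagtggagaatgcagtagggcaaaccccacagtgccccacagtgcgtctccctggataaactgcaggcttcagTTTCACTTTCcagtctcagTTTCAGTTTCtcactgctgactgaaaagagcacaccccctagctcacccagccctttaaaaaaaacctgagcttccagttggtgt
Ifit3: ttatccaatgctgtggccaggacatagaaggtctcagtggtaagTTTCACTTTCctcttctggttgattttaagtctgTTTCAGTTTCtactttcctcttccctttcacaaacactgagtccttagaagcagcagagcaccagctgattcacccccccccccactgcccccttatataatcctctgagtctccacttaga
Isg15: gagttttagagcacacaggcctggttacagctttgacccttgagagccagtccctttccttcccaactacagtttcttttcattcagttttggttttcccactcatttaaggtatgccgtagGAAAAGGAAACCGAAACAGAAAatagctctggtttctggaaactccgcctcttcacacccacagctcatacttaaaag
Bst2: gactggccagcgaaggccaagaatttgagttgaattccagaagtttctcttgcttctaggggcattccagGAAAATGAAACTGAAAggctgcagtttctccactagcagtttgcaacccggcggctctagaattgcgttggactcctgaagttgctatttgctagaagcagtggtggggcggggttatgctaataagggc
Slfn8: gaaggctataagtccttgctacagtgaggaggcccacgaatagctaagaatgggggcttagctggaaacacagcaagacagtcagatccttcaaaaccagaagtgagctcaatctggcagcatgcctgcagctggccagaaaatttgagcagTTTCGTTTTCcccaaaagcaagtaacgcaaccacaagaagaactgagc
Slfn2: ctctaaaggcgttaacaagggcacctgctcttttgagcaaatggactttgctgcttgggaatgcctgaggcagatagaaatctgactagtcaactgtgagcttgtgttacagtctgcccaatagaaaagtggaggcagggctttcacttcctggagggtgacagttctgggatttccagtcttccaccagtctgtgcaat
Ifit1 and Ifit3 each held a pair of separate matches in these bases, Isg15 held 3 overlapping ones, and Bst2 held 2 overlapping ones beside a GAS match that overlaps the first. The Slfn2 window held no ISRE match, but this was not particular to Slfn2, as only 18 of the 36 members with a window held one. Members that fell also lacked a match, among them Cmpk2, Oasl1, Oasl2, Samd9l and Rnf213. In wild type at 2 h, Cmpk2 kept 5.16% and Oasl1 9.51% of the 0 h level. A match is a description of the letters, not of binding. No window was found in the table for Dhx58, Zbp1, Mx1, Oas2, Ifi27l2a, Rtp4, Tor3a, Usp18, Parp9 or Parp14.

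Levels are given as CPM (reads of a gene divided by the library's total in megareads) after TMM scaling over the 60 libraries, whose totals ran from 13987029 to 35476519 reads. Sh2b3 itself stood at 80.4 ± 8.03 CPM (SD, n = 11) in wild-type cells at 0 h and at 13.7 ± 3.21 CPM (SD, n = 11) in Sh2b3-/- cells, with no overlap. The 8 CD8 T cell markers summed to between 5660 and 6660 CPM in the 0 h libraries. Mean Cd4 stayed under 1 CPM in each set and genotype. Other listed markers of CD4 and regulatory T cells had means of 10.2 to 16 CPM for Cd40lg and 0.205 to 1.43 CPM for Foxp3. Means of Zbtb7b ran from 0.0823 to 2.16 CPM. Differences between groups are log2 differences with standard errors from edgeR's quasi-likelihood test, and a gene is called where its Benjamini-Hochberg adjusted p over all genes tested was under 0.05. In bulk RNA, fewer cells expressing a gene and less RNA per cell cannot be told apart.

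In resting cells the 46 members were well expressed in both genotypes. Mean levels in wild type ran from 4.15 CPM for Ifi44 to 1710 CPM for Rnf213, a large ubiquitin ligase, with a median over members of 104 CPM. Per kilobase of exon, Ifi27l2a stood highest in wild type at 237 ± 121 CPM per kb (SD, n = 11). Epsti1 and Slfn2 came next, then Bst2 at 115 ± 59.5 CPM per kb, and Ifi44 was lowest at 0.678 ± 0.616 CPM per kb. The spreads of Ifi27l2a and Bst2 overlap. Reads of the interferons were nearly lacking: of 20 type I and III interferon genes, 11 had a read in any library, and their sum reached at most 14 reads, or 0.676 CPM, in a library.

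**Figure D1:**
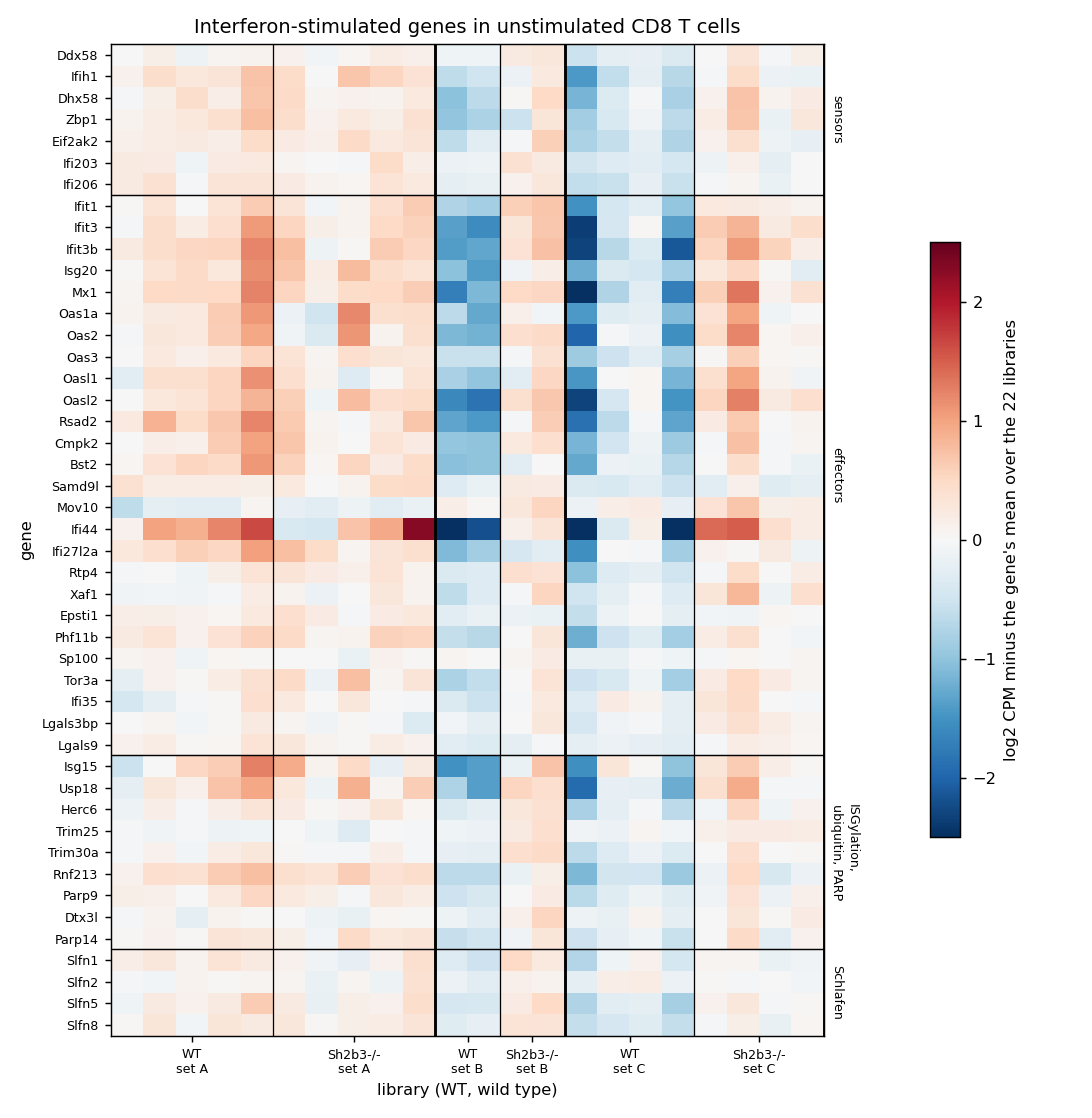
Level of each of the 46 members (rows, grouped by role) in the 22 unstimulated libraries (columns, by library set and genotype), as log2 CPM minus the gene's mean over those libraries, with the colour scale limited to 2.5 in either direction. Wild-type libraries of sets B and C are mostly blue, while wild-type libraries of set A and Sh2b3-/- libraries of all 3 sets are mostly near white or red.

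At 0 h every one of the 46 members had a higher estimate in Sh2b3-/- cells than in wild type when the library set was held constant, with a median log2 difference of 0.35 over members and -0.00 over the 12802 genes tested. Only 4 members were called, all higher in Sh2b3-/-, against 0.633% of all genes called in either direction. They were Ddx58, the RNA sensor RIG-I (log2 difference 0.25 ± 0.06, adjusted p = 0.031), Rtp4 (0.43 ± 0.10, adjusted p = 0.04), Tor3a of the torsin family (0.51 ± 0.11, adjusted p = 0.034) and the Schlafen gene Slfn8 (0.29 ± 0.07, adjusted p = 0.047). At an unadjusted p under 0.05 there were 35 members, against 10.4% of all genes. The count rests on the settings: it was 38 of 46 with no filter on low counts (477 genes called in all). It was 8 with the DESeq2 Wald test (165 genes in all) and 0 without a set term (28 genes in all). Leaving out 1 library at a time gave between 0 and 5 calls, and it fell to 0 without any of 10 libraries: wild-type replicates 3, 5, 7, 8 and 9 and Sh2b3-/- replicates 2, 3, 5, 6 and 7. It was 1 without wild-type replicate 1 or 2 or Sh2b3-/- replicate 4.

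The difference was not alike in the 3 sets. In set A no member was called (0.0703% of all genes were), 21 of 46 members lay above 0, and the median was -0.03. In set B 5 members were called against 0.492% of all genes, all 46 lay above 0, and the median was 0.74. In set C 7 members were called against 0.305% of all genes, 45 lay above 0, and the median was 0.63. With no filter on low counts the 3 sets gave 1, 38 and 37 calls (164, 374 and 281 genes in all). The DESeq2 Wald test gave 0, 22 and 20 (28, 219 and 118 genes in all). Set B fitted alone gave 20 (76 genes in all). Leaving out 1 library gave 0 calls in set B without wild-type replicate 8 or 9, 2 without Sh2b3-/- replicate 7, 9 without wild-type replicate 2, and 3 without any of 11 others (wild-type replicates 1, 3, 5, 6 and 10 and Sh2b3-/- replicates 2, 4, 5, 6, 8 and 11). In set C it gave 0 without wild-type replicate 2 or Sh2b3-/- replicate 3, 1 without wild-type replicate 5, 4 without wild-type replicate 3 and 19 without wild-type replicate 4.

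Ifit1, whose product binds viral RNA that lacks host cap methylation, stood in wild type at 90.3, 112, 88.8, 111 and 137.3 CPM in set A, at 52.2 and 49 CPM in set B and at 30.8, 65.2, 73.4 and 44.9 CPM in set C. In Sh2b3-/- it stood at 110, 84.3, 94, 119 and 137.4 CPM in set A, at 133.3 and 143 CPM in set B and at 104, 104, 99.6 and 94.4 CPM in set C. The genotypes overlapped in set A and did not in sets B and C. Wild-type libraries of sets B and C lay below every wild-type library of set A. Sh2b3-/- libraries of set C lay within the Sh2b3-/- range of set A, and those of set B lay near or above its top. The log2 difference was 1.45 ± 0.31 in set B (adjusted p = 0.048).

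Slfn8 stood in wild type at 207, 250, 195, 252 and 239 CPM in set A, at 165 and 175 CPM in set B and at 135.5, 151.7, 164 and 134.7 CPM in set C. In Sh2b3-/- it stood at 248, 206, 227, 231 and 256 CPM in set A, at 258 and 256 CPM in set B and at 197, 226, 180 and 212 CPM in set C. As for Ifit1, the genotypes overlapped in set A and not in sets B and C. It was the member called in set B (0.59 ± 0.13, adjusted p = 0.029), in set C (0.46 ± 0.09, adjusted p = 0.013) and over all sets, although reads of Slfn8, Slfn9 and Slfn10 are hard to separate and the authors' strand setting is not given.

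Trim30a, a TRIM family gene, was called in sets B (0.68 ± 0.14, adjusted p = 0.018) and C (0.47 ± 0.10, adjusted p = 0.02). Its wild-type levels were 271, 302, 267, 319 and 339 CPM in set A, 241 and 235 CPM in set B and 178, 222, 252 and 220 CPM in set C. Its Sh2b3-/- levels were 287, 271, 275, 313 and 272 CPM in set A, 375 and 389 CPM in set B and 280, 375, 279 and 284 CPM in set C. In set B the wild-type libraries lay below all wild-type libraries of set A, and the Sh2b3-/- libraries lay above all Sh2b3-/- libraries of set A.

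Ddx58 was called in set C (0.43 ± 0.08, adjusted p = 0.01), at 175, 216, 218 and 197 CPM in wild type and 256, 316, 247 and 279 CPM in Sh2b3-/-. Rtp4 was called there too (0.65 ± 0.13, adjusted p = 0.02), at 36.6, 59.7, 63 and 52.8 CPM against 73.3, 103, 74.7 and 85.1 CPM. The groups of either gene did not overlap in that set. Other calls in set C were Oas3, an oligoadenylate synthetase (0.79 ± 0.15), Phf11b (0.80 ± 0.16) and the PYHIN gene Ifi206 (0.43 ± 0.09), and in set B Trim25, the ubiquitin ligase of RIG-I (0.45 ± 0.10), and the ubiquitin ligase Dtx3l (0.53 ± 0.13). Phf11b and Ifi206 have near-identical relatives, so their reads may be shared.

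Several classical members had wide spreads among wild-type libraries and were not called in set C. Oasl2 in wild-type set C stood at 13.8, 51.3, 71.7 and 24.4 CPM, against 100, 165, 80.4 and 92.4 CPM in Sh2b3-/-. Ifit3, the partner of IFIT1, stood there at 22.4, 85.6, 117 and 44.9 CPM against 177, 206, 133.5 and 155 CPM. Both genes were free of overlap between genotypes in that set. Isg15, the ubiquitin-like modifier, stood at 11, 39.8, 32.8 and 15.9 CPM in wild-type set C and at 39.7, 50.2, 36.2 and 33 CPM in Sh2b3-/-, which overlap. Usp18, the ISG15 protease that also blocks the receptor, stood at 14.6, 47.9, 47.3 and 23.3 CPM against 73.2, 105, 54.3 and 53.3 CPM. Within wild-type set C, replicates 2 and 5 were the lowest for all 4 genes, and of the 4 genes Isg15 alone overlapped between genotypes.

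Over the members, Sh2b3-/- libraries all lay above the wild-type libraries of their set for 45 of 46 in set B, where 2 libraries face 2 (18.5% of all genes), and for 30 of 46 in set C (3.84% of all genes). In set A this held for 0 of 46 (0.492% of all genes). Pooled over the sets it held for 0 members (0.0234% of all genes), since wild-type libraries of set A reached the Sh2b3-/- range.

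**Figure D2:**
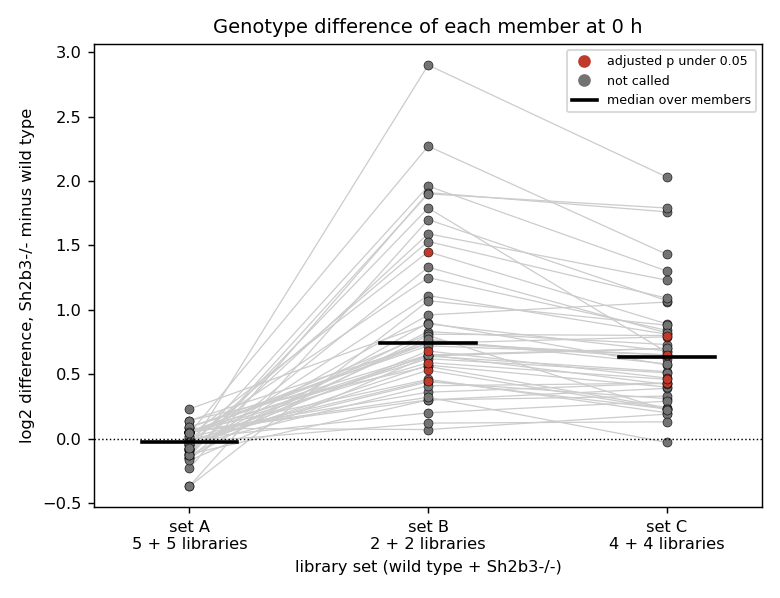
Log2 difference of each member between Sh2b3-/- and wild type at 0 h (vertical axis) in library sets A, B and C (horizontal axis), with grey lines joining a member, red points for called members and a black bar for the median. The medians are -0.03, 0.74 and 0.63, and members with the largest differences in sets B and C are mostly not called.

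Differences between sets were examined in each genotype alone. The sets are not described and share no known baseline, so which genotype departed in sets B and C cannot be told. In wild type the set mattered for 38 of 46 members (quasi-likelihood F test over the 3 sets), against 18.8% of all genes. In Sh2b3-/- it mattered for 9 of 46, against 21.4% of all genes. This was 17 with no filter on low counts (2880 genes in all) and 5 without Sh2b3-/- replicate 2, 6 or 7. In wild type, all set A libraries lay above all libraries of sets B and C for 27 members (6.4% of all genes), and in Sh2b3-/- for 0 members (4.29% of all genes). Wild-type levels in set A were 1.68 times those in set B and 1.7 times those in set C at the median member. In Sh2b3-/- these ratios were 0.967 and 1.04.

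Put another way, the Sh2b3-/- mean of a member lay within the range of the 5 wild-type set A libraries for 24 of 46 members in set B and for 35 in set C. The other Sh2b3-/- means lay above it for 14 and below it for 8 members in set B, and for 4 and 7 in set C. The wild-type mean lay below that range for 42 members in set B and for 40 in set C. These counts were not made over all genes, so they describe the members and do not set them apart. The test of the set difference itself was weaker: the genotype effect in set B minus that in set A had a median of 0.70 and was called for 0 of 46 members (0.0156% of all genes), with 37 at an unadjusted p under 0.05 against 9.69% of all genes. For set C minus set A the median was 0.61 with 0 calls (0% of all genes) and 34 at an unadjusted p under 0.05 against 5.27% of all genes. Set C minus set B had a median of -0.18, 0 calls (0.0469% of all genes) and 2 at an unadjusted p under 0.05 against 8.98% of all genes. With no filter on low counts these 3 tests called 32, 29 and 4 members (291, 143 and 173 genes in all). With DESeq2 they called 5, 0 and 0 (61, 4 and 59 genes in all). The smallest adjusted p in edgeR's test as designed was 0.065, for Trim30a in set B minus set A.

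Averaged as log2 levels over the 46 members, wild-type libraries stood at 7.01 ± 0.22 in set A (SD, n = 5), at 6.07 in both libraries of set B and at 6.19 ± 0.43 in set C (SD, n = 4). Sh2b3-/- libraries stood at 6.97 ± 0.13 in set A (SD, n = 5), at 6.98 ± 0.17 in set B (SD, n = 2) and at 6.94 ± 0.23 in set C (SD, n = 4). Wild-type libraries of sets B and C all lay below those of set A, while the Sh2b3-/- libraries of the 3 sets overlapped.

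Values of other genes that went with these sets are as follows, and their part in the result was not tested. Mean log2 levels over 31 interferon gamma response genes in wild type were 5.39 to 5.73 in set A, 4.81 and 4.86 in set B and 4.81 to 5.43 in set C. In Sh2b3-/- they were 5.47 to 5.76, then 5.35 and 5.70, then 5.31 to 5.90. Lower wild-type levels in sets B and C were therefore not particular to the members, although sets A and C overlapped for these genes. The 7 naive T cell markers summed to means of 7160, 6340 and 6190 CPM in wild-type sets A, B and C and of 7000, 6170 and 6530 CPM in Sh2b3-/-. They did not move as 1: Klf2 was highest in set A in both genotypes (1450 CPM in each, against 713 to 972 CPM elsewhere), while Lef1 was lowest there (533 and 543 CPM, against 673 to 768 CPM). The 8 plasmacytoid dendritic cell markers summed to means of 198 to 305 CPM over the 6 groups of set and genotype, nearly all from Ccr9 and Pacsin1, with Siglech, their defining marker, at 0 to 0.122 CPM. The 8 monocyte and macrophage markers summed to 108 CPM in wild-type set B, 129 in set C and 168 in set A, and to 123, 151 and 166 CPM in Sh2b3-/-. Most of that sum was Ctss, with Cd68 at means of 4.93 to 13.3 CPM and Lyz2 at 0.377 to 1.42 CPM. Itgam, Csf1r, Cd14, Fcgr1 and Adgre1 were each under 1 CPM. Neutrophil markers summed to at most 6.38 CPM in a library, in Sh2b3-/- set C. Summed MHC class II and dendritic cell markers averaged 62.9 CPM and erythroid markers 106 CPM in that group, against 25.8 to 34.8 CPM and 16.3 to 37 CPM in the other 5 groups. Mitochondrial reads made up 1.58 to 2.91% of the 0 h libraries.

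The receptor genes and the transcription factors that act on the members were not called between genotypes at 0 h. The 4 receptor and kinase genes had 0 calls, with Ifnar1 at 202 ± 21.2 CPM in wild type and 203 ± 14.3 CPM in Sh2b3-/- (SD, n = 11 each; log2 difference 0.01 ± 0.04). The difference was 0.02 ± 0.05 for Ifnar2, -0.06 ± 0.04 for Jak1 and -0.07 ± 0.05 for Tyk2. Of the 9 genes for ISGF3 and interferon regulatory factors 0 were called, with a median of 0.23, and the nearest was Irf9 (0.23 ± 0.06, adjusted p = 0.091). Stat2 (0.26 ± 0.12) and Irf7 (0.37 ± 0.19) had estimates of like size, and Socs1, the feedback inhibitor, had 0.23 ± 0.15. Of 39 further interferon-stimulated genes tested, 1 was called, with a median of 0.25. By set, Irf7 had -0.20 ± 0.22 in set A and 0.80 ± 0.25 in set C, and Stat2 had -0.01 ± 0.16 and 0.43 ± 0.18, none called. In the F test over the sets both were called in wild type (adjusted p = 0.014 and 0.048) and not in Sh2b3-/- (adjusted p = 0.62 and 0.98). Estimates for set C minus set A went the other way for Irf1, Irf3 and Irf8.

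Nearly all members were lower at 2 h of stimulation than in unstimulated cells, in both genotypes. No culture without stimulation was sampled at 2, 6 or 24 h, so stimulation and time in culture cannot be told apart. Against 0 h, 42 of 46 members were called lower and 1 higher in wild type at 2 h (27.5% and 26.8% of all genes), and 41 lower and 1 higher in Sh2b3-/- (28.1% and 26.4%). At 6 h 44 were lower and 1 higher in wild type (24.8% and 25.2% of all genes), and 41 and 1 in Sh2b3-/- (23.6% and 26%). At 24 h, against the 0 h libraries of sets B and C, 41 were lower and 1 higher in wild type (26.5% and 27.8% of all genes), and 43 and 1 in Sh2b3-/- (28.4% and 30.4%). The median member kept 22.9, 19.6 and 26.9% of its 0 h level at 2, 6 and 24 h in wild type and 23.7, 26.4 and 21.5% in Sh2b3-/-.

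**Figure D3:**
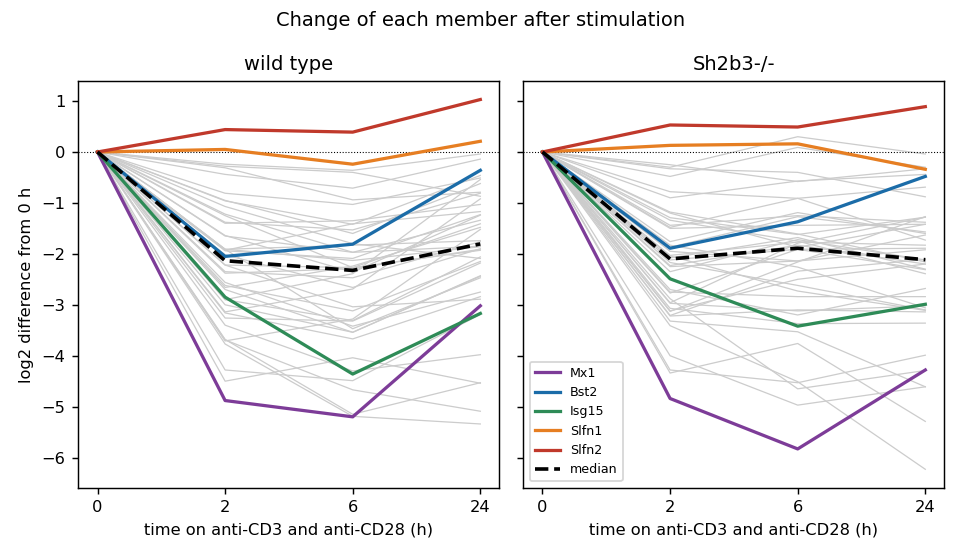
Log2 difference from 0 h (vertical axis) of each member at 2, 6 and 24 h of stimulation (horizontal axis, evenly spaced) in wild type and Sh2b3-/-, with the median dashed and 5 members in colour. Slfn2 rises in both genotypes, Slfn1 stays near 0, Bst2 is near -2 at 2 h and nearer 0 at 24 h, where the 0 h libraries of sets B and C are the reference, and Mx1 is the lowest coloured gene at 2 and 6 h.

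Among the roles, effectors had the lowest median at 6 h in both genotypes. Mx1, a dynamin-like GTPase, stood in wild type at 0 h at 67.7 CPM or more in set A, at 19.6 and 29.5 CPM in set B and between 8.57 and 52.8 CPM in set C, and between 2.18 and 6.1 CPM at 2 h, and in Sh2b3-/- between 69.3 and 163 CPM at 0 h (median 91.4) and between 2.59 and 4.58 CPM at 2 h. No stimulated library reached the 0 h range. The log2 difference at 2 h was -4.88 ± 0.26 in wild type and -4.84 ± 0.26 in Sh2b3-/- (adjusted p = 3.3e-15 in each). All 26 effectors were called lower at 6 h in both genotypes, with medians of -2.89 and -2.21.

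Isg15 stood in wild type at 5.66, 3.78, 5.12, 7.08 and 9.95 CPM at 2 h and at 1.37, 2.86, 2.35, 2.45 and 1.71 CPM at 6 h. In Sh2b3-/- it stood at 6.01, 7.36, 12.1, 5.08 and 6.79 CPM at 2 h and at 1.74, 2.76, 8.73, 3.35 and 2.37 CPM at 6 h. All of these lay under the lowest 0 h library of their genotype in set A, 22.2 CPM in wild type and 27.7 CPM in Sh2b3-/-. The fall from 0 to 6 h was -4.36 ± 0.41 in wild type (adjusted p = 1.1e-09) and -3.42 ± 0.38 in Sh2b3-/- (adjusted p = 3.1e-08).

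Other members fell in different steps. Ifi27l2a fell by 1.25 ± 0.14 on the log2 scale at 2 h and again by 1.02 ± 0.14 between 2 and 6 h in wild type, from a range of 127 to 216 CPM in set A to 59.2 to 82.3 CPM and then 23.8 to 38.7 CPM. The 3 ranges did not overlap. Between 2 and 6 h, 13 members were called lower and 3 higher in wild type (19% and 18.5% of all genes), and 8 lower and 12 higher in Sh2b3-/- (17.5% and 20.4%). The balance in Sh2b3-/- rests on replicates 3 and 5 at 6 h: without them 17 were lower and 6 higher, and the median over members went from -0.01 to -0.27. Phf11b (0.51 ± 0.14 and 0.97 ± 0.14), Sp100 (0.52 ± 0.11 and 0.60 ± 0.11) and the ISG15 ligase Herc6 (0.42 ± 0.16 and 0.86 ± 0.16) rose from 2 to 6 h in wild type and in Sh2b3-/-. Parp14, a mono-ADP-ribosyltransferase, rose from 2 to 6 h in Sh2b3-/- (0.57 ± 0.22, adjusted p = 0.046), but without replicates 3 and 5 at 6 h the estimate was -0.12.

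Sensors, which detect viral nucleic acid, had medians of -1.97 in wild type and -1.68 in Sh2b3-/- at 6 h. Ddx58 stood at 112, 114, 108, 109 and 117 CPM at 2 h and at 67, 57.5, 65.4, 58.3 and 76.3 CPM at 6 h in wild type, below its lowest set A value at 0 h of 233 CPM (log2 difference -1.22 ± 0.12 and -1.97 ± 0.13). Zbp1, a sensor of Z-form nucleic acid, stood at 26.3, 24.9, 25.2, 33.4 and 36.6 CPM at 2 h, at 50.6, 32.1, 36.3, 32.8 and 42.2 CPM at 6 h and at 65.7, 68.1, 58.4, 77.5 and 70.6 CPM at 24 h. Every stimulated library lay below the lowest 0 h library, at 101 CPM. Rtp4 stood at 15.2, 16.3, 19.1, 22.1 and 26 CPM at 2 h in wild type, against 70.1 to 95.5 CPM in set A at 0 h (log2 difference -2.02 ± 0.21). Dtx3l and Parp14 were not called at 2 h in either genotype. By 24 h Bst2, tetherin, stood at 53.3, 43.3, 45.1, 53.4 and 48.8 CPM in wild type, inside the 42.5 to 93.5 CPM of sets B and C at 0 h (-0.36 ± 0.19, adjusted p = 0.1). In Sh2b3-/- Bst2 remained called lower at 24 h (-0.48 ± 0.18, adjusted p = 0.027).

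The Schlafen genes split. Slfn2, which keeps T cells quiescent, was the member called higher at each time in both genotypes. It stood in wild type at 222, 216, 240, 231 and 238 CPM at 0 h in set A, at 250, 305, 321, 312 and 371 CPM at 2 h and at 316, 318, 260, 308 and 271 CPM at 6 h. At 24 h it stood at 432, 404, 454, 413 and 441 CPM, above every 0 h library of sets B and C, which ran from 186 to 257 CPM. The log2 difference was 0.44 ± 0.11 at 2 h, 0.39 ± 0.11 at 6 h and 1.03 ± 0.09 at 24 h in wild type, and 0.53 ± 0.11, 0.49 ± 0.11 and 0.89 ± 0.09 in Sh2b3-/- (adjusted p from 3.5e-10 to 0.0039). Slfn1 was called at no time, with estimates of 0.05 ± 0.15, -0.24 ± 0.15 and 0.21 ± 0.18 in wild type. Slfn5 fell by 4.50 ± 0.26 on the log2 scale at 2 h in wild type, from a 0 h median of 207 CPM to between 8.49 and 18 CPM, and Slfn8 fell by 2.38 ± 0.13, to between 41.1 and 49.4 CPM.

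The regulators did not all follow the members. Irf7 fell from 222 ± 94.1 CPM at 0 h (SD, n = 11) to 66.1 ± 16.1, 28.6 ± 2.5 and 16.6 ± 5.4 CPM (SD, n = 5 each) in wild type, with log2 differences of -2.18 ± 0.17 at 2 h and -3.20 ± 0.33 at 24 h. Stat2 was lower at both times in wild type (-0.97 ± 0.17 and -0.82 ± 0.16), as was Irf9 (-0.70 ± 0.11 and -0.53 ± 0.15). Socs1 was not called at 2 h (0.04 ± 0.24) and was higher at 24 h (1.54 ± 0.14). All 4 receptor and kinase genes were called lower at 24 h in both genotypes. Of 28 interferon gamma response genes tested, 15 were called higher and 4 lower at 24 h in wild type, with a median of 0.72, while the members' median was -1.81.

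**Figure D4:**
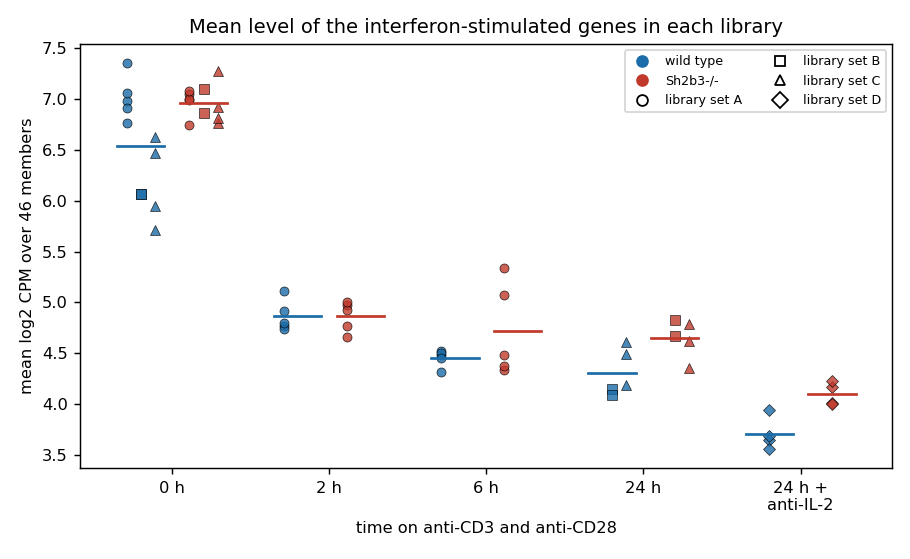
Mean log2 CPM over the 46 members (vertical axis) in each of the 60 libraries, by time and treatment (horizontal axis), in blue for wild type and red for Sh2b3-/-, with symbols for the library set and a bar for the group mean. Wild-type 0 h libraries of sets B and C lie between 5.71 and 6.63, below the other 0 h libraries, which begin at 6.74, and 2 Sh2b3-/- libraries at 6 h stand apart at 5.07 and 5.34.

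After stimulation the genotypes differed in few members. At 2 h 0 of 46 members were called (0.0647% of all genes), with 2 at an unadjusted p under 0.05 (13.1% of all genes) and a median of 0.02. The DESeq2 test called 0 (122 genes in all), and without the filter on low counts 1 was called (230 genes in all). Whether the change over time differed between genotypes was tested too, and 0 members were called at 2, 6 and 24 h (0% of all genes at each), with 0, 15 and 13 at an unadjusted p under 0.05 against 4.95, 4.35 and 8.39% of all genes. DESeq2 called 0 members at each time. Without the filter 8 members were called lower at 24 h (141 genes called in all, in either direction).

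At 6 h 0 of 45 members tested were called (0.0306% of all genes), with 14 at an unadjusted p under 0.05 (5.68% of all genes), 0 by DESeq2 and a median of 0.25. That median rested on 2 libraries: Sh2b3-/- replicates 3 and 5 had mean log2 member levels of 5.34 and 5.07, against 4.34 to 4.48 in the other 3 and 4.32 to 4.52 in wild type. Without them the median was 0.03. Parp14 shows this, at 154.2, 177, 581, 204 and 312 CPM in Sh2b3-/- and 160, 139, 170, 156.7 and 152.5 CPM in wild type. Ifng, the gene of interferon gamma, stood at 63.6 CPM in replicate 3 and at 2.32 CPM in replicate 5, against 0.447 to 2.92 CPM in the other Sh2b3-/- libraries, and Gbp2, a gene of the interferon gamma response, stood at 1720 and 570 CPM against 181 to 355 CPM. The part of these values in the members' levels was not tested. Ifi27l2a did not follow, at 40.6, 39, 42.8, 30 and 36.1 CPM in the 5 Sh2b3-/- libraries.

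At 24 h 2 of 45 members were called, both higher in Sh2b3-/-, against 0.372% of all genes, and the median was 0.30. Ifit3 stood in wild type at 15.4, 18.2 and 16.1 CPM in set C and at 6.19 and 7.66 CPM in set B. In Sh2b3-/- it stood at 24.6, 47.8 and 41.2 CPM in set C and at 35 and 22 CPM in set B. The groups did not overlap, and the log2 difference was 1.51 ± 0.22 (adjusted p = 0.008). Mov10, an RNA helicase, stood at 44, 44.3, 42.6, 54.9 and 53.3 CPM in wild type and at 79.2, 63.4, 94.8, 98.5 and 69.9 CPM in Sh2b3-/-, also without overlap (0.76 ± 0.12, adjusted p = 0.016). Reads of Ifit3 and its near copy Ifit3b (1.31 ± 0.43, adjusted p = 0.24) may be shared.

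Of the 45 members, 4 had no overlap with Sh2b3-/- above wild type (Ifit3, Oasl2, Mov10 and Lgals3bp), against 0.69% of all genes. Oasl2 stood at 7.29, 8.33, 6.7, 4.78 and 2.16 CPM in wild type and at 8.5, 20.1, 12.1, 9.87 and 9.94 CPM in Sh2b3-/- (1.11 ± 0.28, adjusted p = 0.12). The median over members was 0.49 within set B and 0.12 within set C. The count of calls was 1 in set B alone (11 genes in all), 1 in set C alone (59) and 0 with no set term (3). It was 6 with DESeq2 (231 genes in all) and 7 with no filter (362). When 1 library was left out it ran from 1 to 4. It was 1 without wild-type replicates 1, 3 or 4 or Sh2b3-/- replicate 4. It was 3 without Sh2b3-/- replicate 5 and 4 without Sh2b3-/- replicate 1.

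Anti-IL-2 cultures held less of many members than other 24 h cultures, but they form set D alone, so the antibody and the library set cannot be told apart. Against the 24 h cultures without it, 17 of 45 members were called lower and 1 higher in wild type (3.16% and 2.77% of all genes), with a median of -0.69. In Sh2b3-/- 16 were called lower and 0 higher (2.81% and 2.81% of all genes), with a median of -0.63. The 12 called lower in both, each genotype against its own controls, were 70.6% of the wild-type list and 75% of the Sh2b3-/- list. This overlap was not counted over all genes, and both comparisons place set D against sets B and C. It therefore tells nothing particular to the members. Rnf213 was the member called higher in wild type (0.57 ± 0.17, adjusted p = 0.048), a call lost with DESeq2's size factors and with no filter on low counts. Without Sh2b3-/- anti-IL-2 replicate 1, 10 members were called in Sh2b3-/-. The difference between genotypes in this effect was called for 0 members (0% of all genes), with 3 at an unadjusted p under 0.05 (4.4% of all genes) and 0 by DESeq2.

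**Figure D5:**
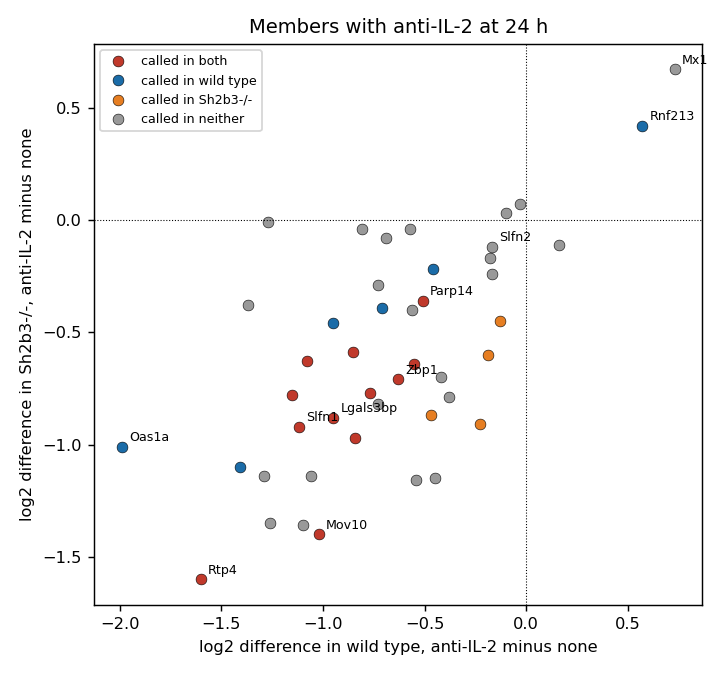
Log2 difference of each of 45 members between 24 h cultures with and without anti-IL-2, in wild type (horizontal axis) and in Sh2b3-/- (vertical axis), coloured by where the member was called. The 12 members called in both genotypes lie at lower left, and Rnf213 and Mx1 lie at upper right.

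Rtp4 stood with anti-IL-2 at 6.09, 6.15, 3.45 and 3.39 CPM in wild type and at 5.32, 7.39, 4.63 and 5.04 CPM in Sh2b3-/-. Without it, the values were 20.4, 20, 13, 11.2 and 7.74 CPM and 9.32, 30.9, 11.4, 16.3 and 17.6 CPM. There was no overlap in either genotype, and the log2 difference was -1.60 ± 0.34 in each (adjusted p = 0.0082 and 0.0071). Slfn1 stood at 83.9, 69.6, 70.3 and 86.4 CPM with anti-IL-2 in wild type against 227, 171, 194, 128 and 125 CPM without (-1.12 ± 0.23, adjusted p = 0.0073), and at 64.9, 106, 65.1 and 86.8 CPM against 121, 231, 148, 101 and 162 CPM in Sh2b3-/- (-0.92 ± 0.23, adjusted p = 0.022). It overlapped in Sh2b3-/- alone.

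Mov10 stood at 19.7, 24.1, 24.8 and 25.9 CPM with anti-IL-2 in wild type (-1.02 ± 0.13, adjusted p = 9e-05) and at 30.8, 32.6, 29.9 and 29.1 CPM in Sh2b3-/- (-1.40 ± 0.13, adjusted p = 1.5e-06). Each value lay below every culture of its genotype without the antibody. Zbp1 stood at 40.2, 46.9, 44.6 and 43.9 CPM in wild type (-0.63 ± 0.13) and at 54.4, 61.5, 51.9 and 45.5 CPM in Sh2b3-/- (-0.71 ± 0.13), again below every untreated culture. Lgals3bp, the galectin-3 binding protein, had -0.95 ± 0.10 and -0.88 ± 0.10, and Ifi35 had -0.84 ± 0.13 and -0.97 ± 0.13. Slfn2 (-0.17 ± 0.08 and -0.12 ± 0.08) was called in neither genotype.

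Of the upstream genes, Socs1 fell from 114 ± 10.1 to 36 ± 3.38 CPM in wild type (-1.67 ± 0.12, adjusted p = 5.3e-08) (SD, n = 5 and 4), and from a range of 121 to 169 CPM to one of 36.9 to 51.7 CPM in Sh2b3-/- (-1.62 ± 0.12, adjusted p = 8e-08). Irf1 was lower in both genotypes (-0.64 ± 0.12 and -0.71 ± 0.12), while Stat2, Irf9, Irf7 and the 4 receptor and kinase genes were not called. Of 28 interferon gamma response genes, 19 were lower in wild type and 21 in Sh2b3-/-. The untreated 24 h sets differed in naive marker sums, 2190 CPM in set B and 4990 CPM in set C in wild type against 1810 CPM with anti-IL-2, and against set B controls alone the members' median was -0.49 in wild type, against set C controls -0.83.

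Between genotypes within set D, 1 of 45 members was called, against 0.35% of all genes, with a median of 0.28 and 40 members above 0. The difference was not particular to the members. Of the interferon gamma response genes, Gbp4, Gbp6, Igtp, Irgm1, Irgm2, Iigp1, Ifi47 and Nlrc5 were called, all higher in Sh2b3-/-. Gbp4 had 0.55 ± 0.07 (adjusted p = 0.00089) and Iigp1 had 1.20 ± 0.21 (adjusted p = 0.042). Parp14 stood at 104, 100, 102 and 130 CPM in wild type and at 149, 130.9, 152.1 and 165 CPM in Sh2b3-/-, without overlap (0.45 ± 0.09, adjusted p = 0.031). Members free of overlap with Sh2b3-/- higher were Parp14, Ifih1, Oasl1, Mov10, Lgals3bp and Dtx3l, 6 of 45 against 2.43% of all genes. Ifit1 overlapped by a narrow margin, at 4.66, 4.51, 5.39 and 7.44 CPM in wild type and at 7.4, 15.5, 8.91 and 9.57 CPM in Sh2b3-/- (0.92 ± 0.25, adjusted p = 0.2). DESeq2 called 4 members (141 genes in all) and the test with no filter 7 (191 genes in all). Leaving out 1 library gave 0 calls in 6 of 8 cases: without wild-type replicates 1, 2 or 3, or Sh2b3-/- replicates 1, 3 or 4. The mean log2 member level was 3.71 ± 0.16 in wild type and 4.10 ± 0.12 in Sh2b3-/- (SD, n = 4 each), with no overlap between libraries.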

How the data were processed

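The deposited values are whole-number read counts per gene, made by the authors for 60 libraries of polyA RNA. Per the submitters' processing notes, FastQC 0.119.9, STAR 2.7.9a, SAMtools, Picard 2.42.2 and featureCounts 2.0.1 were used with GRCm39; the strand setting is not given in the sources used here. Ensembl IDs were named from the GENCODE table for 52081 of 55414 IDs, which hold 99.6% of counts. Counts were fitted in R 4.3.3 with edgeR 4.0.16 (filterByExpr with a minimum count of 10, TMM, robust quasi-likelihood F test), and p-values were adjusted by Benjamini-Hochberg over all genes tested, with a threshold of 0.05. Library set was a term at 0 and 24 h. Times of 2 and 6 h were compared with 0 h libraries of set A, and 24 h with those of sets B and C. Log2 levels used a prior count of 2. DESeq2 1.42.0, other scalings, no filter, other set terms and leaving out each library were alternatives. The procedure was tested on simulated counts drawn independently for each library. These held no set effect common to both genotypes and no likeness between libraries, so the test does not bear on either. Totals ran from 13987029 to 35476519 reads (median 17994613), and low members have the least precision. Promoter windows are RefSeq's on GRCm38.p6, matched by symbol. In 33 of 43 member windows, bases shortly after the start were found in a GENCODE transcript of the same gene. For the others, start and strand were not checked further. No coordinates of the authors' build are printed. Any member could be named, with full values for 14 chosen genes and for up to 6 called members in a comparison. The members, gene lists and tests were chosen with earlier results of these data known. The values of 1 regulator are not reported here.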

Additional observations from a re-analysis of the deposited data

Results flagged for a closer look

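In 8 of 180 groups of 4 to 10 values tested (12 groups of libraries), 1 library lay further from the rest than Dixon's 95% critical value; chance gives about 1 in 20. Sh2b3-/- replicate 3 at 6 h stood high for Isg15 (8.73 CPM, others 1.74 to 3.35) and for Bst2 (73 CPM, others 43.6 to 47.6). Sh2b3-/- replicate 5 at 6 h stood high for Slfn1 (320 CPM, others 170 to 212). Sh2b3-/- replicate 4 at 24 h stood high for Isg15 (12.5 CPM, others 2.18 to 3.7). Among wild-type anti-IL-2 libraries, replicate 3 stood high for Slfn2 (409 CPM, others 368 to 374) and replicate 4 for Parp14 (130 CPM, others 100 to 104). Wild-type replicate 4 at 2 h stood high for Parp14 (212 CPM, others 182 to 191). Sh2b3-/- replicate 9 at 0 h, in set A, had a low mean log2 member level (6.74, others 6.99 to 7.08).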

How the results depend on the processing

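Of 668 recomputed medians over members, 651 moved by less than 0.16 and 17 by more. The sign changed in 17 of the 668, all for comparisons whose median as reported was at most 0.04 in size: 6 against 2 h in Sh2b3-/- (6), genotype in set A (2), genotype at 2 h (3), genotype by anti-IL-2 (3) and genotype by time at 2 h (3). With no filter on low counts, calls between genotypes were 38 at 0 h, 1, 38 and 37 in sets A, B and C, 32, 29 and 4 for set B minus A, C minus A and C minus B, 17 for set in Sh2b3-/-, 1 at 2 h, 7 at 24 h, 7 with anti-IL-2 and 8 for genotype by time at 24 h. The DESeq2 Wald test gave 8 at 0 h, 22 and 20 in sets B and C, 5 for set B minus A, 6 at 24 h and 4 with anti-IL-2. The numbers of all genes called in these settings stand beside the members' counts in the Results. With no set term there were 0 at 0 h and 0 at 24 h; set B fitted alone gave 20 at 0 h, and at 24 h sets B and C alone gave 1 each. All libraries with a set term gave 13 for 6 against 2 h in Sh2b3-/-, and moved the genotype by time median from 0.04 to -0.30 at 2 h, from 0.35 to 0.04 at 6 h and from -0.38 to -0.02 at 24 h. With set B controls only, the genotype by anti-IL-2 median went from 0.01 to -0.19. The cause was not tested. Leaving out 1 library gave ranges of 0 to 5 at 0 h, 0 to 9 in set B, 0 to 19 in set C, 0 to 1 for set B minus A, 30 to 39 for set in wild type, 5 to 9 in Sh2b3-/-, 1 to 4 at 24 h, 0 to 1 with anti-IL-2 and 12 to 18 (wild type) and 10 to 19 (Sh2b3-/-) for the anti-IL-2 effect. Named genes kept direction and side of the threshold in 4870 of 5079 settings; 208 lost the call and 1 reversed, Parp14 for 6 against 2 h in Sh2b3-/- without replicates 3 and 5 (-0.12). Set A libraries at 0, 2 and 6 h have numbers 10 apart, which the labels do not call paired. Deviations from group means correlated above 0.1 in 19 of 30 pairs with such numbers and in 7 of 120 others, with median correlations of 0.15 and -0.02. A library's best match at another time was the one 10 or 20 apart in 55 of 60 comparisons. Libraries with such numbers were therefore more alike than others. The tests between 0, 2 and 6 h reported above have no term for this likeness. With these numbers as a replicate block, calls were 44, 45 and 22 in wild type (2 h, 6 h, 6 against 2 h) and 44, 43 and 25 in Sh2b3-/-, against 43, 45, 16, 42, 42 and 20 without it; for 6 against 2 h the block gave 17 lower and 5 higher in wild type and 12 lower and 13 higher in Sh2b3-/-. Each 24 h library without anti-IL-2 has a number 20 above that of a 0 h library of its genotype and set. The likeness of those libraries was not examined. The tests of 24 h against 0 h, and of genotype by time at 24 h, have no term for it. Low members such as Ifi44, under 1 CPM after stimulation, are limited by depth.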
